A study of Mus musculus with 9 samples.

Results

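Challenged Vegfr3iLECko conjunctiva was compared with unchallenged control conjunctiva, using 6 of the 9 libraries of a mouse messenger RNA sequencing series on allergic eye disease. The members are the 3 challenged knockout and the 3 unchallenged control libraries, chosen by their labels, and every gene of the table was taken up. Each library pooled the conjunctiva, the mucous membrane of the inner lids and the white of the eye, of 3 mice. The comparison asks which differences from unchallenged tissue were present in challenged knockouts. Genotype and challenge differed together, and no unchallenged knockout group was analysed here, so the part of each cannot be told apart.

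Control pools were Vegfr3 fl/fl (fl/f in their genotype label) and knockout pools Vegfr3 fl/fl;prox1CreERT2, in which tamoxifen activates a Cre recombinase under Prox1, a gene of lymphatic endothelial cells. Controls were littermates without the Cre, so the presence of Cre and the loss of Vegfr3 cannot be told apart either. What both groups share, per their treatment labels and the protocol, is 5 tamoxifen injections of 75 mg/kg at week 5 of age, and at week 6 an immunization in which 250 µg of OVA (ovalbumin) was given with 0.3 µg of PTX (pertussis toxin) and 5 mg of aluminum hydroxide. Challenged pools then received OVA drops of 250 µg in the right eye from 14 days later, daily over 28 days, and saline in the other eye. The treatment label of the unchallenged pools names tamoxifen and the immunization but no drops, so they are not naive tissue. From which eye or animals they came is not given. Challenged controls (3 libraries) entered the same model and are given beside the results.

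VEGFR3, encoded by Flt4, is the receptor through which the growth factors VEGF-C and VEGF-D drive the growth and survival of lymphatic vessels. These vessels drain fluid from the conjunctiva and carry antigen and dendritic cells to lymph nodes, where T cells are primed. In allergic conjunctivitis, T helper cells, mast cells and eosinophils enter the tissue, and cytotoxic lymphocytes and interferons are a separate arm of immunity, known best from infection.

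The 6 libraries held 17991911 to 24746836 counts each, which puts the floor used for a count of 0, namely 3 counts, at 0.121 to 0.167 CPM (counts scaled to a common library size). Of 20603 genes, 15613 had enough counts to test. Values below are CPM scaled between libraries with TMM factors, in the order of replicates 1, 2 and 3; they compare a gene between libraries, not different genes. The labelled tissue was checked against conjunctival markers: the mucosal keratins Krt4 and Krt13 were at 2127 to 5079.6 CPM in the 6 libraries, and Muc5ac, the goblet cell mucin, ranged from 76.5 to 834 CPM. Knockout 1 stood apart: 12 genes were at least 10 times higher in it than in any other of the 6 libraries, against 2 genes in unchallenged control 1 and 0 in each of the other 4. Results that rest on it are given with and without it.

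No gene passed the test between challenged knockouts and unchallenged controls. With edgeR's quasi-likelihood test and Benjamini-Hochberg adjustment, 0 of 15613 genes (0%) reached an adjusted p of 0.05, and the lowest adjusted p was 0.999. At an unadjusted p of 0.05, 195 genes were higher in challenged knockouts (1.25%) and 257 were lower (1.65%). The 3 knockout libraries lay wholly above the 3 controls for 509 genes (3.26%) and wholly below for 520 (3.33%). The median log2 fold change over all genes was 0.00, and the median standard error (SE) of a gene's log2 fold change was 0.27.

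The counts turned on single libraries. Without knockout 1, the counts at an unadjusted p of 0.05 were 398 genes higher and 843 lower. They were 148 and 117 without knockout 2 and 189 and 91 without knockout 3. They were 171 and 152 when unchallenged control 2 was left out, and 278 and 396 for unchallenged control 3. DESeq2 on the same counts put 677 genes at an unadjusted p of 0.05 and passed 14, of which 10 were higher (Ighg1, Ccl5, Mrgprg, Sprr2a2, Oas1a, Gzma, Ccl4, Oas3, Krtdap and Zbp1) and 4 lower (Car3, Kcnq3, Pcsk6 and Islr2). Of these, Ighg1 and Krtdap rest on knockout 1, which held 165 of the 165 Ighg1 counts and 392 of the 410 Krtdap counts of the 3 knockouts. In the same edgeR fit, challenged against unchallenged controls passed 10 genes (0.064%), and challenged knockouts against challenged controls passed 0 (0%), with 1325 genes at an unadjusted p of 0.05 and a lowest adjusted p of 0.271. These comparisons share libraries with the one described here, so their values stand side by side only.

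**Figure D1:**
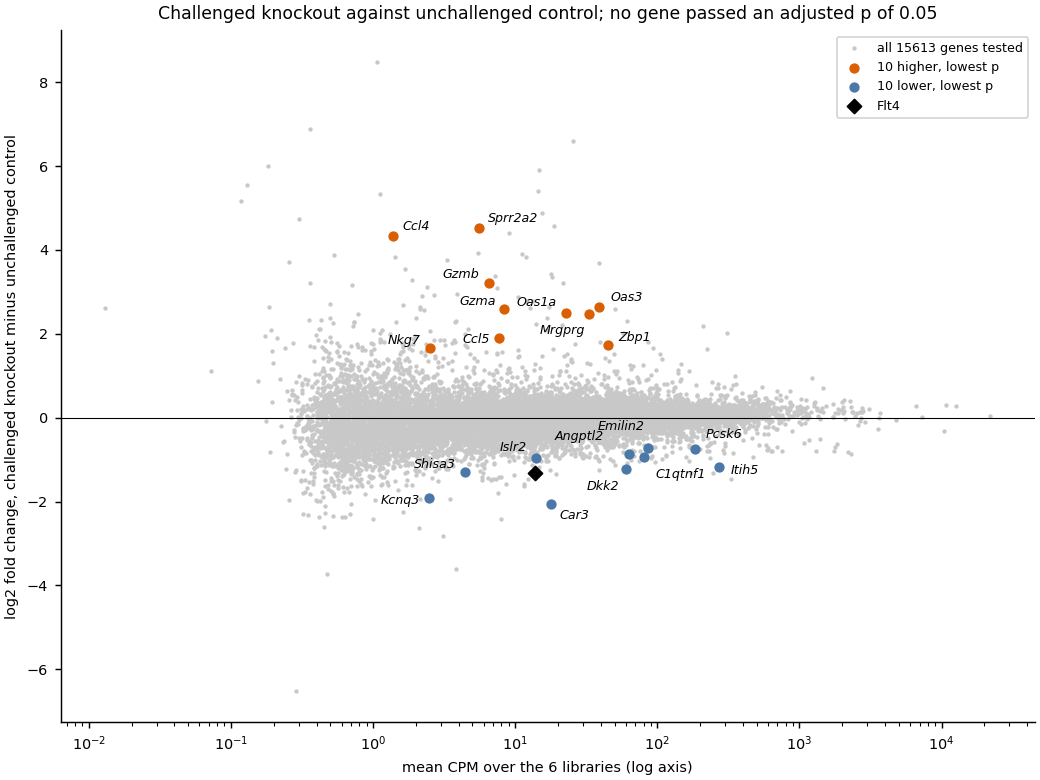
Log2 fold change of challenged knockouts against unchallenged controls (y axis) by mean CPM over the 6 libraries (x axis, log scale) for the 15613 genes tested. The 10 genes of lowest unadjusted p in each direction are coloured and named; none passed an adjusted p of 0.05, and most genes lie near 0.

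Flt4 was lower in all 3 knockout libraries. Its values were 18.5, 26.8 and 13.5 CPM in the unchallenged controls and at 13.0, 5.07 and 5.32 CPM in challenged knockouts. The groups did not overlap, but knockout 1 lay just below unchallenged control 3. The log2 fold change was -1.32 (SE 0.40, 95% interval -2.22 to -0.43), and Flt4 did not pass over all genes in edgeR's test (adjusted p = 0.999). It was -1.91 without knockout 1 and -1.03 without unchallenged control 2. In whole conjunctiva fewer cells of a type and less RNA per cell cannot be told apart, for this and every gene that follows. Intervals for single genes are not adjusted for the number of genes tested.

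Other genes of lymphatic endothelium gave no common direction. Of 15 tested, Flt4 was lower and Foxc2 higher at an unadjusted p of 0.05, beside 1.65% and 1.25% of all genes. The median log2 fold change was -0.04. Prox1, the master regulator of lymphatic identity and the Cre driver, was at 12.8, 7.89 and 8.82 CPM in the unchallenged controls and at 10.7, 7.55 and 14.2 CPM in challenged knockouts, so the groups overlapped. Lyve1, a hyaluronan receptor of lymphatic capillaries that macrophages also carry, was at 110, 111 and 74.2 against 102, 72.1 and 72.7 CPM, also overlapping. Foxc2, a transcription factor of lymphatic valves, was at 17.4, 20.4 and 18.7 CPM in the unchallenged controls and at 28.8, 24.7 and 26.4 CPM in challenged knockouts. All 3 knockouts lay above all 3 controls for Foxc2 (log2 fold change 0.50, SE 0.19), and the gene did not pass.

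In the VEGF and angiopoietin family, 2 of 15 tested genes were lower at an unadjusted p of 0.05 (beside 1.65% of all genes) and none higher. They were Tek and Flt4, the gene targeted in the knockouts. The median log2 fold change was -0.33, beside -0.21 for challenged against unchallenged controls. The ligands of VEGFR3 overlapped between groups, Vegfc at 4.97, 12.0 and 7.03 against 8.76, 5.6 and 5.6 CPM. Vegfd was at 31.5, 16.2 and 12.4 against 20.1, 16.4 and 22.2 CPM. Tek, the angiopoietin receptor TIE2, was at 60.0, 67.9 and 49.3 against 52.5, 27.6 and 32.6 CPM, with knockout 1 inside the control range. Kdr, which encodes VEGFR2, was at 66.5, 64.8 and 67.1 against 62.0, 37.3 and 58.8 CPM, a log2 fold change of -0.33 (95% interval -0.94 to 0.28).

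The 10 genes that passed between challenged and unchallenged controls were mostly genes of cytotoxic T cells. In challenged knockouts their mean levels lay between those of the control groups, and for 9 of the 10 the challenged knockouts and unchallenged controls did not overlap, beside 3.26% of all genes apart in the higher and 3.33% in the lower direction. The 10 were chosen by a test on the same unchallenged libraries, so this count supports nothing by itself. Ccl5, a chemokine that draws T cells, was at 3.66, 3.45 and 2.57 CPM in the unchallenged controls, 41.4, 48.4 and 43.1 in challenged controls, and 9.30, 18.5 and 8.69 in challenged knockouts. The 3 groups were apart, and the knockouts lay between the other two. The log2 fold change of challenged knockouts against unchallenged controls was 1.91 (SE 0.30, 95% interval 1.23 to 2.59), beside 3.77 for challenged against unchallenged controls (adjusted p = 0.00674, edgeR) and -1.87 for knockouts against challenged controls (adjusted p = 0.286).

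Gzma, which encodes the serine protease granzyme A of killer cells, was at 4.50, 1.38 and 1.31 CPM in the unchallenged controls, 145, 65.2 and 78.3 in challenged controls, and 8.49, 24.5 and 10.2 in challenged knockouts. Again the 3 groups were apart, and the log2 fold change of challenged knockouts against unchallenged controls was 2.60 (SE 0.58), beside 5.34 in challenged controls. Nkg7, a cytotoxic granule protein, was at 1.94, 0.689 and 0.997 CPM in the unchallenged controls and at 3.43, 4.95 and 3.03 in challenged knockouts, with 9.37 to 21.5 in challenged controls. Its log2 fold change against unchallenged controls was 1.66 (SE 0.45).

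The 2 chains of the CD8 co-receptor of killer T cells had the same order of knockout libraries. Cd8a was at 3.30, 2.26 and 2.57 CPM in the unchallenged controls and at 3.43, 9.97 and 5.32 in challenged knockouts, against 23.2 to 50.7 in challenged controls. Cd8b1 was at 1.05, 0.421 and 0.997 CPM in the unchallenged controls and at 1.17, 4.31 and 3.60 in challenged knockouts, against 11.9 to 17.8 in challenged controls. For both, knockout 1 lay barely above the highest unchallenged control and knockouts 2 and 3 clearly above it, with log2 fold changes of 1.20 (SE 0.42) and 1.88 (SE 0.52). Without knockout 2 that of Cd8a was 0.69. Lck, the kinase that starts T cell receptor signalling, was at 1.67, 1.34 and 2.36 CPM in the unchallenged controls and at 3.31, 3.60 and 3.60 in challenged knockouts, a log2 fold change of 0.97 (SE 0.31).

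The other genes of this group were nearer the unchallenged level. Itgae, the CD103 integrin chain of T cells that lodge in epithelium, was at 5.55, 3.25 and 5.35 CPM in the unchallenged controls and at 6.54, 6.72 and 4.29 in challenged knockouts, so these groups overlapped, while challenged controls were at 20.3 to 27.0. Gch1, the first enzyme of tetrahydrobiopterin synthesis, was at 12.7, 9.07 and 11.3 CPM against 17.1, 16.2 and 15.2 in knockouts, with a log2 fold change of 0.56 and a 95% interval of -0.13 to 1.25. AA467197 was at 34.6, 34.3 and 33.5 CPM against 43.9, 48.8 and 47.2 in knockouts, and at 91.8 to 157 in challenged controls. Pfn2, an actin-binding profilin and the single gene that was lower in challenged than in unchallenged controls, was at 38.6, 39.9 and 36.2 CPM against 33.0, 29.0 and 33.0 in knockouts and 16.5 to 19.9 in challenged controls. Its log2 fold change in knockouts was -0.27 (SE 0.15).

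**Figure D2:**
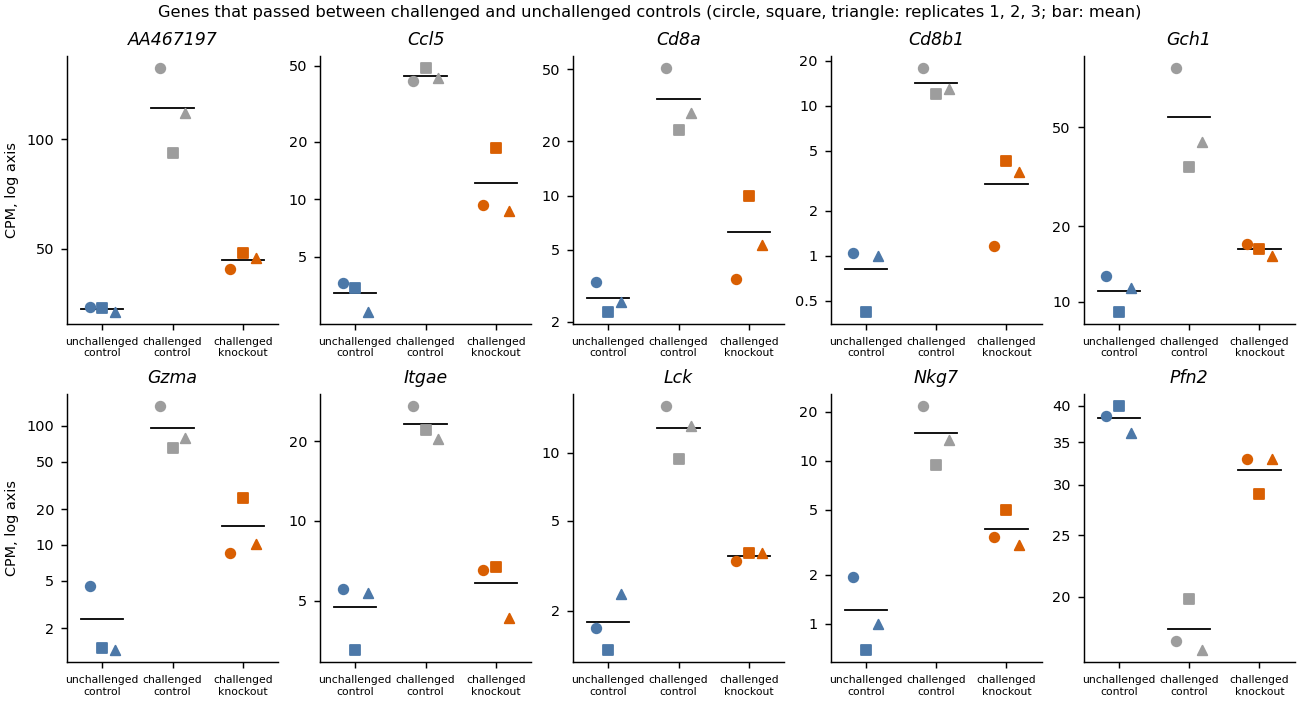
CPM (log axes) of the 10 genes that passed between challenged and unchallenged controls, in each of the 9 libraries, with replicates 1, 2 and 3 as circle, square and triangle and the mean as a bar. In 9 panels the challenged knockouts are apart from the unchallenged controls, and Itgae overlaps.

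Across the whole list of cytotoxic lymphocyte genes, 7 of 14 tested were higher in challenged knockouts at an unadjusted p of 0.05 and 0 lower, beside 1.25% and 1.65% of all genes, and 0 passed over all genes. The members chosen for this list were known from earlier results of these data. The median log2 fold change was 1.56, beside 3.72 for challenged against unchallenged controls and -2.19 for knockouts against challenged controls. The summed level was 32.2, 14.8 and 16.4 CPM in the unchallenged controls and 46.3, 99.6 and 49.9 in challenged knockouts, against 227 to 451 in challenged controls. Gzmb, the granzyme that activates caspases, was at 2.67, 0.689 and 0.472 CPM against 5.33, 20.6 and 9.21 in knockouts, a log2 fold change of 3.21 (SE 0.78). Prf1, the pore-forming perforin, was at 0.733, 0.383 and 0.367 CPM against 0.934, 3.18 and 1.20. Knockout 2 held the highest value of the 3 knockouts for both genes, and the groups were apart for both.

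General T cell genes were mixed. Of 20 tested, 14 had a positive log2 fold change, and 5 (Lck, Cd3d, Cd3g, Zap70 and Trac) were higher in all 3 knockouts than in any unchallenged control, beside 3.26% of all genes. Lck was the 1 gene at an unadjusted p of 0.05 in the higher direction and 0 were lower, beside 1.25% and 1.65% of all genes. The median log2 fold change was 0.28, beside 2.10 in challenged controls. Cd3d, Cd3g, Zap70 and Trac, parts of the T cell receptor and its signalling, had log2 fold changes of 0.78, 0.66, 0.63 and 0.68. Without unchallenged control 1, 5 of the 20 were higher at an unadjusted p of 0.05. The count over all genes then went from 195 to 234. Cd3e, a CD3 chain that signals for the T cell receptor, was at 4.71, 2.57 and 3.94 CPM in the unchallenged controls and at 4.98, 3.77 and 2.63 in challenged knockouts. Cd4, the co-receptor of helper T cells, was at 1.99, 2.26 and 2.10 against 3.00, 1.42 and 1.54 CPM. Both overlapped, and the log2 fold changes were 0.03 (SE 0.39) and -0.08 (SE 0.54). Whether Cd8a and Cd4 differed from each other in their change was not tested.

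Other lymphocyte products had few counts. Ccl4, a chemokine of activated lymphocytes, was at 0.105, 0.115 and 0.157 CPM in the unchallenged controls, at or under the floor, and at 1.99, 4.95 and 1.03 in challenged knockouts. Ifng, the cytokine interferon gamma, had 0, 2 and 0 counts in unchallenged controls and 3, 17 and 6 in challenged knockouts, against 416 counts over the 3 challenged controls. Scaled by total counts, the ratio of knockouts to unchallenged controls was 13.5 for Ifng, with an exact 95% interval of 3.39 to 118 that covers counting error only.

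Antiviral interferon-stimulated genes had higher values in challenged knockouts than in unchallenged controls, and their summed level was least raised in knockout 1. Of 14 antiviral genes tested, 12 were higher in challenged knockouts than in unchallenged controls at an unadjusted p of 0.05 (beside 1.25% of all genes), 0 were lower, and 0 passed over all genes. For 9 of the 14 the groups were apart in the higher direction (beside 3.26%), and the median log2 fold change was 1.59, beside 2.44 for challenged against unchallenged controls and -0.74 for knockouts against challenged controls. The summed level was 590, 357 and 499 CPM in the unchallenged controls and 630, 2010 and 1125 in challenged knockouts, against 984 to 3317 in challenged controls. Knockout 1 was close to the highest unchallenged control, while knockouts 2 and 3 both lay within the challenged control range. Without knockout 2 the count at an unadjusted p of 0.05 was 5 of 14, and without unchallenged control 2 it was 7.

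Oas1a and Oas3 encode 2'-5' oligoadenylate synthetases, which sense double-stranded RNA and activate RNase L. Oas1a was at 8.42, 4.94 and 7.24 CPM in the unchallenged controls, 57.0, 39.5 and 122 in challenged controls, and 16.9, 68.1 and 30.5 in challenged knockouts. Oas3 was at 16.2, 5.36 and 11 CPM, 90.9, 43.0 and 187, and 21.4, 126 and 54.8 in the same order of groups. Both were higher in all 3 knockouts than in any unchallenged control, with log2 fold changes of 2.49 (SE 0.55) and 2.64 (SE 0.71). Members of the Oas family are similar in sequence, so reads could be split between copies.

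The stretch just upstream of the start of both genes is shown because each holds the interferon-stimulated response element (ISRE), a motif known from the promoters of interferon-induced genes. The sequences are the 150 bases before the start in RefSeq's promoter table, build GRCm38.p6, matched by symbol since the counts were made on another build. Capitals mark matches to GAAANNGAAA, of which Oas1a holds 2 that overlap.
Oas1a, chr5:120907526-120907675, minus strand: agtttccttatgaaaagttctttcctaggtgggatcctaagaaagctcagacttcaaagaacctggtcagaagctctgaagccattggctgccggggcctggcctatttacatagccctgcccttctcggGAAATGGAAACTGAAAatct
Oas3, chr5:120777660-120777809, minus strand: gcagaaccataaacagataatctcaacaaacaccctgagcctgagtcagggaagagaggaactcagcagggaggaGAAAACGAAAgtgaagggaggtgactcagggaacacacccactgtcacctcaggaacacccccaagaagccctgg
Over the 250 bases upstream of the start and on both strands (GAAANNGAAA or TTTCNNTTTC), 7 of the 12 antiviral genes with an entry held a match (58.3%), beside 408 of the 11843 tested genes with an entry (3.45%). For the interferon gamma list the count was 9 of 13 (69.2%), and for the cytotoxic list 2 of 9 (22.2%). A match describes the letters and says nothing about binding in these libraries.

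Other antiviral genes gave like values. Zbp1, a sensor of Z-form nucleic acid outside the list, was at 28.8, 14.0 and 18.9 CPM in the unchallenged controls and at 38.0, 99.9 and 68.3 in challenged knockouts, a log2 fold change of 1.74 (SE 0.43). Isg15, a ubiquitin-like protein, was at 23.2, 11.5 and 27.5 CPM against 33.0, 171 and 102. Rsad2, the antiviral enzyme viperin, was at 3.66, 2.95 and 2.52 CPM against 5.53, 72.0 and 21.3. Irf7, a transcription factor that amplifies type I interferon, was at 54.8, 38.1 and 69.0 CPM against 72.6, 231 and 163. In each of these 4 genes knockout 1 was the lowest and knockout 2 the highest of the challenged knockouts, and the groups were apart.

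**Figure D3:**
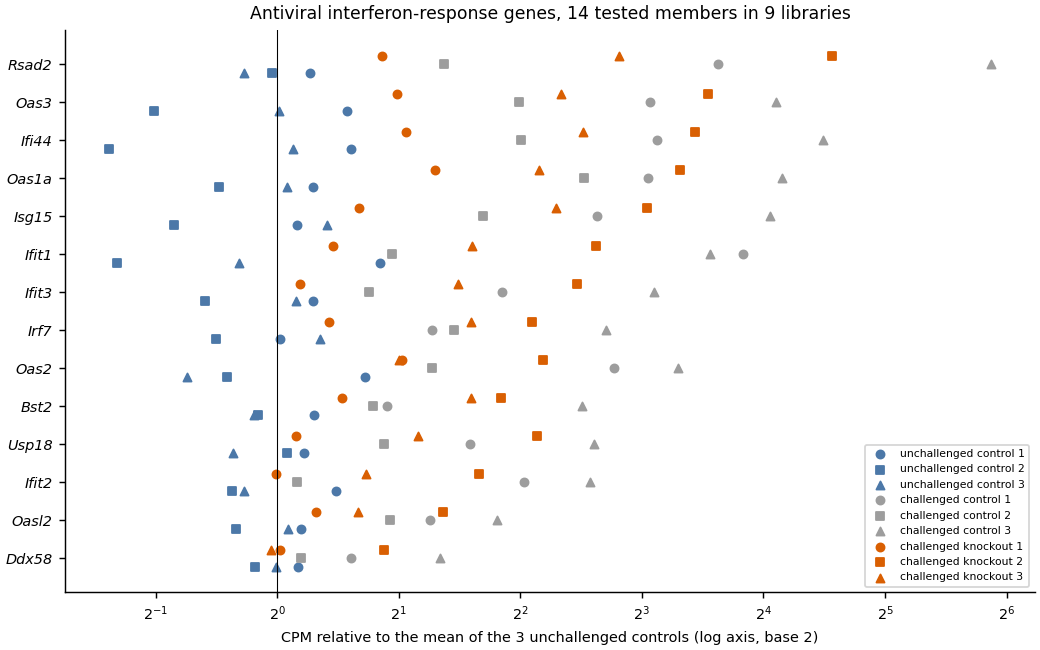
The 14 tested antiviral interferon genes, each 1 line, in the 9 libraries: the x axis is CPM relative to the mean of the 3 unchallenged controls (log axis, base 2), with replicates 1, 2 and 3 as circle, square and triangle. Knockout 2 is the rightmost knockout in every line. In 9 of the 14 lines all 3 knockouts lie to the right of all 3 unchallenged controls.

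Interferon gamma response genes also had a median above 0. Of 17 tested, 6 were higher at an unadjusted p of 0.05 and 0 lower, with the groups apart for 3, beside 1.25% and 3.26% of all genes, and the median log2 fold change was 1.35, beside 3.27 in challenged controls. Leaving out knockout 2 or unchallenged control 2 brought the count to 1, leaving out unchallenged control 3 to 2, and leaving out knockout 3 to 3. Gbp2, a guanylate-binding protein of cell-autonomous defence, was at 173, 72.3 and 123 CPM in the unchallenged controls and at 172, 660 and 656 in challenged knockouts. Knockout 1 thus lay inside the control range and knockouts 2 and 3 above it. Cxcl10, a ligand of CXCR3 on T cells, was at 1.10, 0.421 and 1.57 CPM against 6.27, 63.8 and 19.3, a log2 fold change of 4.88 with a wide SE of 1.78.

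Antigen presentation genes of class I had log2 fold changes above 0, and those of class II overlapped between the groups. All 12 class I genes tested had a positive log2 fold change, with a median of 0.72. Of them 3 (H2-K1, Tap1 and Psme2) were higher at an unadjusted p of 0.05, beside 1.25% of all genes. That count was 10 without knockout 1 and 7 without unchallenged control 1, while the count over all genes went from 195 to 398 and 234. Leaving out unchallenged control 2 or 3, or knockout 2 or 3, brought it to 1, beside 171, 278, 148 and 189 over all genes. Psme2, an activator subunit of the immunoproteasome, was at 63.6, 58.5 and 79.1 CPM in the unchallenged controls and at 85.2, 115 and 131 in challenged knockouts, with the groups apart. Tap1, a peptide transporter of the class I pathway, was at 128, 69.6 and 116 CPM against 110, 362 and 212, and overlapped. Of 10 class II genes tested, 0 were higher or lower at an unadjusted p of 0.05, and the median was 0.22, beside 1.62 in challenged controls. Cd74, the invariant chain, was at 605, 390 and 363 CPM against 558, 679 and 460, and its 95% interval was -0.26 to 0.90.

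Dendritic cell genes (14 tested, median log2 fold change 0.25, beside 1.56 in challenged controls) and checkpoint receptor genes (12 tested, median 0.54, beside 1.69) had 0 members at an unadjusted p of 0.05 in either direction. Cd274, which encodes PD-L1, was at 79.1, 46.5 and 48.2 CPM in the unchallenged controls and at 86.3, 90.7 and 60.4 in challenged knockouts, against 114 to 603 in challenged controls. Its knockout and unchallenged values overlapped. Among 9 tested B cell and plasma cell genes the median was -0.33, beside 2.59 in challenged controls. Ighg1, an antibody heavy chain, had 0 counts in all 3 unchallenged controls and 165, 0 and 0 in challenged knockouts, against 1509 over the challenged controls. Over the group this is at least 57.2-fold higher than the floor of 3 counts over the 3 unchallenged controls, all of it from knockout 1. Ltb, which encodes lymphotoxin beta, a signal that organises lymphoid tissue, was at 3.92, 2.53 and 2.89 CPM against 5.29, 5.49 and 5.37, a log2 fold change of 0.79 (SE 0.28).

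Genes of allergic inflammation held few members at an unadjusted p of 0.05. Of 20 type 2 genes tested, 1 (Ccl22) was higher at an unadjusted p of 0.05 and 0 lower, beside 1.25% and 1.65% of all genes. The median log2 fold change was 0.38, beside 0.70 for challenged against unchallenged controls, and 15 of the 20 were positive. For 3 (Il4ra, Ccl22 and Chil3) the groups were apart in the higher direction, beside 3.26% of all genes. For 0 they were apart in the lower direction, beside 3.33%. Ccl22, a chemokine for T helper 2 and regulatory T cells, was at 1.20, 0.613 and 0.997 CPM in the unchallenged controls and at 1.56, 4.19 and 1.83 in challenged knockouts. Il4, the cytokine that directs the T helper 2 response, had 51 counts over the unchallenged controls and 45 over the challenged knockouts, a ratio of 0.918 with an exact 95% interval of 0.601 to 1.40. Il5 had 16 and 17 counts and Il13 had 4 and 9, which sets wide limits on both.

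Markers of the cells of allergy overlapped between the groups, apart from 1 mast cell gene. Of 6 eosinophil genes tested, 0 were at an unadjusted p of 0.05, with a median of 0.83, beside 2.21 in challenged controls. Siglecf, a lectin receptor of eosinophils, was at 0.994, 1.03 and 0.525 CPM in the unchallenged controls and at 2.80, 2.83 and 0.572 in challenged knockouts. Ccr3, the eotaxin receptor, was at 2.30, 0.919 and 0.367 against 6.81, 2.71 and 1.14 CPM, and both genes overlapped. Of 9 mast cell and basophil genes, 1 was lower at an unadjusted p of 0.05, beside 1.65% of all genes. It was Slc18a2, the vesicular monoamine transporter that loads histamine, at 4.87, 3.33 and 2.47 against 2.37, 2.01 and 1.26 CPM. Tpsb2, a mast cell tryptase, was at 10.5, 9.73 and 11.9 against 12.1, 8.96 and 7.49 CPM. Of 16 macrophage and monocyte genes tested, 0 were at an unadjusted p of 0.05 and the median was 0.00.

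Of 8 neutrophil and granule genes tested, 7 had a positive log2 fold change. At an unadjusted p of 0.05, 1 (Ltf) was higher and 0 were lower, beside 1.25% and 1.65% of all genes. For 2 (Ltf and Lcn2) the groups were apart in the higher direction, beside 3.26% of all genes. The median was 1.14, which was -0.25 without knockout 1. Ltf, the iron-binding protein lactoferrin of tears and neutrophil granules, was at 211, 221 and 181 CPM in the unchallenged controls and at 406, 297 and 295 in challenged knockouts, with the groups apart and a log2 fold change of 0.70 (SE 0.25). Lcn2, which binds bacterial iron carriers, was at 106, 101 and 55.4 against 258, 189 and 132 CPM, also apart, with a 95% interval of -0.03 to 2.31.

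Connective tissue genes had lower values in knockouts 2 and 3. Of 16 fibroblast and collagen genes tested, 14 had a negative log2 fold change. The median was -0.76, beside -0.26 for challenged against unchallenged controls. Of the 14, 2 (Col5a1 and Col14a1) were at an unadjusted p of 0.05, beside 1.65% of all genes lower. Without knockout 1 that count was 13 and the median -1.19, while the count over all genes went from 257 to 843. Without knockout 2 or without knockout 3 the count was 1, beside 117 and 91 over all genes. The summed level was 8691, 15042 and 13026 CPM in the unchallenged controls and 11033, 6162 and 4341 in challenged knockouts. Knockout 1 lay inside the control range and knockouts 2 and 3 below it. Col14a1, a collagen that binds fibrils, was at 324, 419 and 386 CPM against 307, 193 and 125. Of 11 tested matrix protease and inhibitor genes, 3 (Mmp2, Timp2 and Timp3) were lower at an unadjusted p of 0.05 (beside 1.65% of all genes). None was higher, and the median was -0.09, so this list as a whole was not lower. Leaving out unchallenged control 2, knockout 2 or knockout 3 brought the 3 to 0, beside 152, 117 and 91 lower over all genes. Mmp2, a gelatinase of stromal cells, was at 523, 726 and 656 against 533, 343 and 338 CPM. Timp1, a metalloprotease inhibitor, was on the other side, at 1.88, 4.44 and 3.04 against 17.4, 6.19 and 4.17 CPM, and overlapped.

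The 10 named genes of lowest unadjusted p in the lower direction held several secreted and matrix genes. Itih5, a heavy chain that binds hyaluronan, was at 434, 383 and 321 CPM in the unchallenged controls and at 246, 163 and 95.5 in challenged knockouts, with 298 to 388 in challenged controls. Its log2 fold change was -1.17 (SE 0.30), beside -0.16 for challenged against unchallenged controls. Dkk2, a secreted Wnt antagonist, was at 85.5, 69.1 and 98.1 CPM against 48.6, 34.9 and 25.2, a log2 fold change of -1.21 (SE 0.27). For challenged against unchallenged controls that of Dkk2 was -0.48. Emilin2, a glycoprotein of elastic fibres, was at 99.1, 111 and 112 CPM against 83.8, 58.4 and 52.0. In all 3 genes knockout 3 was the lowest library and knockout 1 the nearest to the controls.

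The other members, Pcsk6, Car3, Kcnq3, Islr2, C1qtnf1, Shisa3 and Angptl2, were also lower in all 3 challenged controls than in any unchallenged control. Pcsk6, a proprotein convertase, was at 226, 221 and 242 CPM in the unchallenged controls, 144, 161 and 160 in challenged controls and 151, 150 and 109 in challenged knockouts. Its log2 fold change was -0.75 (SE 0.16) in knockouts, beside -0.57 in challenged controls. Car3, a carbonic anhydrase abundant in fat and muscle, was at 36.6, 36.1 and 13.7 CPM, 4.33, 3.68 and 2.97, and 9.03, 7.84 and 3.66 in the same order of groups, a log2 fold change of -2.07 (SE 0.43) in knockouts. Kcnq3, a voltage-gated potassium channel subunit, was at 4.76, 3.87 and 3.15 CPM against 1.05, 1.30 and 0.743 in knockouts, a log2 fold change of -1.92 (SE 0.38). In challenged controls it was at 2.66, 1.57 and 1.83 CPM. The other 4, Islr2, C1qtnf1, Shisa3 and Angptl2, had log2 fold changes of -0.97, -0.93, -1.29 and -0.87. Those for challenged against unchallenged controls were -0.76, -0.30, -0.69 and -0.61. The groups were apart in all 10 because the naming rule required it.

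**Figure D4:**
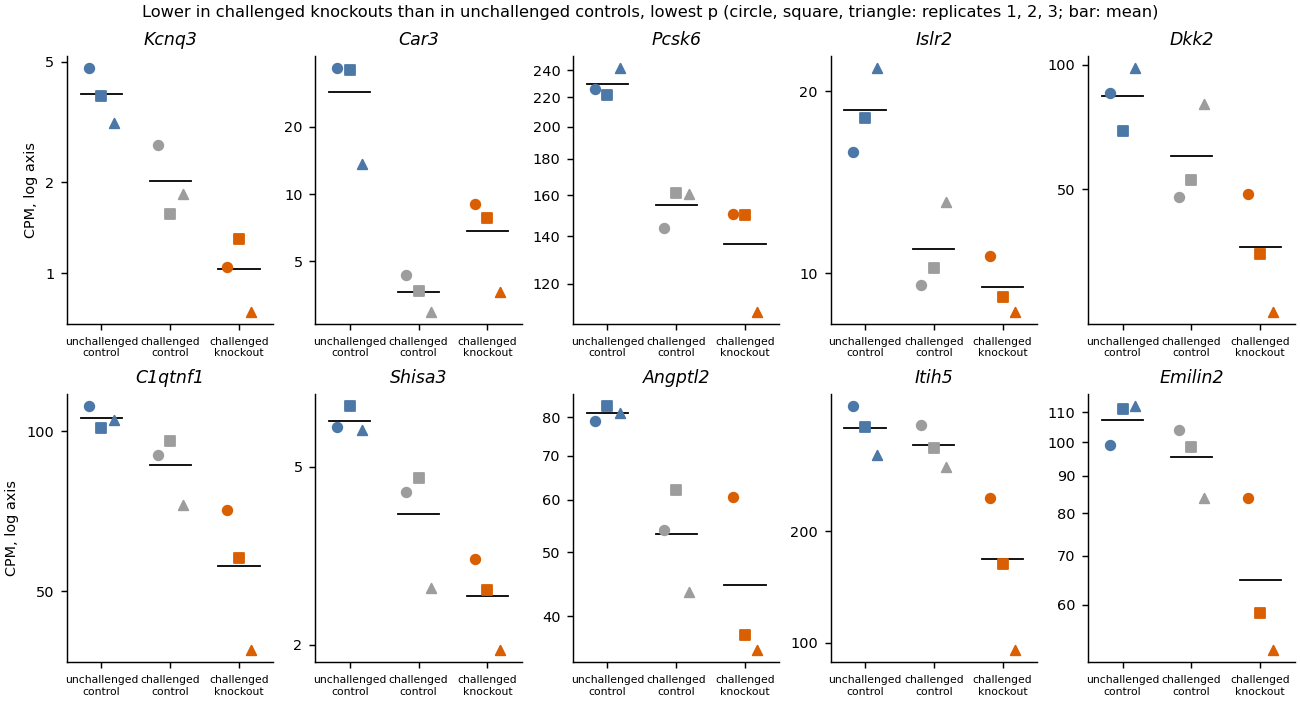
CPM (log axes) of the 10 genes of lowest unadjusted p that were lower in challenged knockouts, in each of the 9 libraries, with replicates 1, 2 and 3 as circle, square and triangle and the mean as a bar. All knockout points lie below all unchallenged control points, as the naming rule required, and knockout 3 is the lowest of the knockouts in each panel.

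Epithelial genes varied between pools more than between groups. The log2 fold changes of the 15 keratins tested ran from 0.03 to 1.31 with a median of 0.24. Of these, 1 (Krt76) was higher at an unadjusted p of 0.05, beside 1.25% of all genes. The summed level was 28309, 33164 and 48304 CPM in the unchallenged controls and 28079, 58266 and 43860 in challenged knockouts, so knockout 1 held the least keratin and knockout 2 the most. The part of this spread in the connective tissue values was not tested. Krt5, a keratin of basal cells, had a log2 fold change of 0.31 with a 95% interval of -0.56 to 1.19. Junction and barrier genes (14 tested) had 0 members at an unadjusted p of 0.05 and a median of 0.10.

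Of 10 cornified envelope genes tested, 2 (Sprr1a and Sprr2a1) were higher at an unadjusted p of 0.05 and 0 lower, beside 1.25% and 1.65% of all genes. The median was 0.64, with Lce3a at -1.64 and lower in every knockout than in any unchallenged control. Leaving out 1 library gave 1 to 4 genes higher, with 4 when unchallenged control 2 was left out. Sprr2a2, a small proline-rich protein of the envelope, was at 0.262, 0.804 and 0.262 CPM in the unchallenged controls and at 8.14, 22.8 and 1.26 in challenged knockouts, a log2 fold change of 4.53 (SE 1.01). Its close copy Sprr2a1 was at 1.78, 6.20 and 1.52 against 28.3, 67.3 and 3.37 CPM, and reads of the pair could be assigned to either. Knockout 3 was near the controls for both genes and knockouts 1 and 2 far above. Mrgprg, an orphan Mas-related receptor, was at 14.9, 9.38 and 6.04 CPM against 43.2, 93.7 and 30.4, a log2 fold change of 2.46 (SE 0.44), beside 2.73 in challenged controls. Wfdc18, a secreted protease inhibitor-like protein, was at 42.0, 79.1 and 63.5 CPM in the unchallenged controls, 101, 200 and 142 in challenged controls and 37.3, 34.8 and 20.5 in challenged knockouts. The knockouts lay below both control groups, with a log2 fold change of -0.995 (SE 0.32) against unchallenged controls, beside 1.26 for challenged against unchallenged controls.

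Goblet cell and mucin genes (11 tested) had 1 member, Fcgbp, higher at an unadjusted p of 0.05 (beside 1.25% of all genes) and a median of 0.37. Muc5ac was at 529, 76.5 and 146 CPM in the unchallenged controls and at 834, 112 and 134 in challenged knockouts. The first pool of each group was the highest, and the difference between groups was small beside this spread (log2 fold change 0.53, SE 1.07). Of the immediate early genes, 13 of 13 tested had positive values with a median of 0.93, which was 0.37 without knockout 3. Among them 3 (Junb, Egr3 and Ier2) were at an unadjusted p of 0.05, beside 1.25% of all genes higher. Junb, a subunit of the AP-1 transcription factor, was at 151, 190 and 246 against 218, 378 and 429 CPM.

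Markers of neighbouring tissue separated single pools. In knockout 1, genes of the meibomian gland, which makes the lipid of the tear film, stood far above the rest: Elovl4, an elongase of very long fatty acids, was at 1.05, 0.268 and 0.262 CPM in the unchallenged controls and at 150, 0.236 and 0.114 in challenged knockouts. The 9 tested genes of this list had a median log2 fold change of 1.13, which was -0.37 without knockout 1, and a summed level of 1760 CPM in knockout 1 against 451 to 600.5 in the other 5 libraries. The contractile genes Acta2, Myh11 and Cnn1 of smooth muscle were also highest in knockout 1, with Myh11, a smooth muscle myosin, at 3.51, 10.6 and 2.73 against 188, 1.89 and 27.9 CPM. The whole pericyte and smooth muscle list (10 tested) had a median of 0.16, and its summed level of 962 CPM in knockout 1 was less far from the other libraries (320 to 642). In both lists 3 genes were higher at an unadjusted p of 0.05 (beside 1.25% of all genes), and 0 without knockout 1. The part of this tissue in other results was not tested.

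Skeletal muscle genes overlapped between the groups in summed level, and fat genes had a lower median. The 19 tested muscle genes took 0.255%, 0.785% and 0.357% of all counts in unchallenged controls and 0.415%, 0.298% and 0.438% in challenged knockouts, against 0.0458% to 0.142% in challenged controls. Their median log2 fold change was -0.41, with 0 genes at an unadjusted p of 0.05, beside -2.29 for challenged against unchallenged controls. The 8 tested adipocyte genes had a median of -1.77, beside -3.07. Of them 2 (Car3 and Cidec) were lower at an unadjusted p of 0.05, beside 1.65% of all genes. Cidec, a lipid droplet protein, was at 5.02, 10.8 and 0.42 CPM against 1.13, 1.12 and 0, so unchallenged control 3 lay below 2 of the knockouts.

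The remaining lists held few members at an unadjusted p of 0.05, beside 1.25% of all genes higher and 1.65% lower. Cytokine genes of the IL-1, TNF, IL-17 and IL-36 families (12 tested, median 0.27), complement (12, -0.12), cell cycle (15, -0.02), corneal epithelium (8, 0.04), red blood cell (5, 0.28) and tetrahydrobiopterin and nitric oxide genes (10, 0.04) had 0. Blood endothelium (17, 0.13) had Tek lower, Schwann cell and nerve (10, -0.14) had the myelin gene Pmp22 lower, and stress and hypoxia (12, 0.17) had Slc2a1 higher. Slc2a1, the glucose transporter GLUT1, was at 22.4, 22.7 and 27.5 CPM in the unchallenged controls and at 46.6, 31.6 and 38.2 in challenged knockouts, with the groups apart and a log2 fold change of 0.68 (SE 0.30). Il1a, an alarm cytokine of epithelium, was at 22.1, 36.8 and 9.08 against 14.6, 13.8 and 9.95 CPM, and overlapped. Aqp5, a water channel of tear-secreting epithelium, was at 138, 125 and 149 against 138, 269 and 297 CPM, with knockout 1 at the control level.

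**Figure D5:**
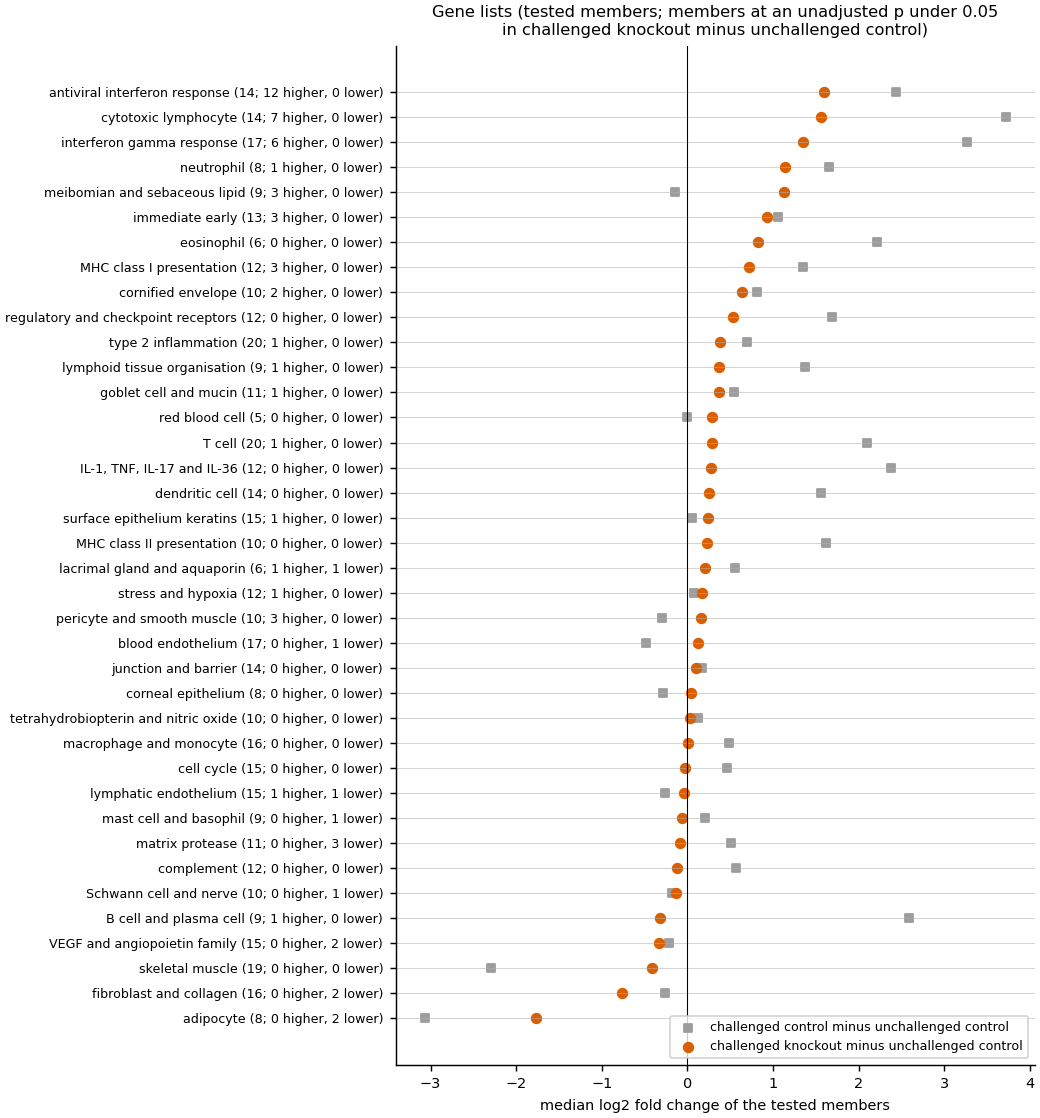
Median log2 fold change of each gene list for challenged knockouts against unchallenged controls, (circles) and for challenged against unchallenged controls (squares), which share the unchallenged libraries. The labels give the genes tested and those at an unadjusted p of 0.05. Antiviral and cytotoxic medians are at 1.59 and 1.56 and the fibroblast median at -0.76.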

How the data were processed

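The authors deposited raw counts of reads per gene symbol for 9 libraries. Per the submitters' processing notes they used HISAT2, Bowtie2, DESeq2 and the build mm39; which program counted reads, and the annotation and strand, is not given in the sources used here. All 9 libraries entered 1 quasi-likelihood fit in edgeR 4.0.16 (with limma 3.58.1 in R 4.3.3), using TMM factors and filterByExpr, so that 3 groups shared an estimate of the spread (biological coefficient of variation 31.7%). Tests were two-sided, with Benjamini-Hochberg adjustment over 15613 genes. DESeq2 1.42.0 was an alternative, which left 4873 adjusted p-values unset.

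The 40 gene lists, the named genes and the comparison were chosen with earlier results of these data known, so no list was tested. Named genes were Flt4 and Prox1; genes that passed, filled to 10 in each direction by lowest unadjusted p among genes with a mean of at least 1 CPM and groups apart; the genes that passed between controls; and up to 4 per list. Members named beyond this rule (such as Cd3e, Cd4, Lyve1, Vegfc, Vegfd, Siglecf, Ccr3, Isg15, Rsad2, Prf1 and Muc5ac) were chosen as defining genes of their lists, with their values seen. Ratios of summed counts carry exact 95% intervals that, like the floor of 3 counts, cover counting error only. Reads carry no molecular identifiers.

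The labels speak of replicate experiments but not what a number marks, so p-values measure the spread between pools. No 2 libraries of a group were copies: counts differed by 31.4 to 103 times sampling noise (chi-square per degree of freedom).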

Additional observations from a re-analysis of the deposited data

How the results depend on the processing

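Over 17 alternatives (normalisation, filters, DESeq2, a fit of the 6 libraries alone, the replicate number as a block, and leaving out each library), edgeR passed 0 genes, while DESeq2 passed 10 higher and 4 lower. DESeq2 put 295 genes higher at an unadjusted p of 0.05. Leaving out 1 library gave 148 to 398 genes higher and 91 to 843 lower. Whether the replicate numbers pair the groups was not settled, and the main fit did not use them. Deviations of same-numbered libraries correlated at 0.318, -0.0914 and 0.321, beside -0.498 to 0.312 for libraries of unlike number. Replicates 1 and 3 thus had the highest values, and replicate 2 did not correlate best with its own number. With the replicate block, 601 genes were higher and 542 lower at an unadjusted p of 0.05, or 551 and 494 in the 6 libraries, and 0 passed (lowest adjusted p 0.256 and 0.0862 in edgeR). Of 58 named genes followed, 56 kept their sign throughout; leaving out 1 library moved Prox1 between -0.10 and 0.38 and Elovl4 between -1.53 and 7.53. The cause was not tested. Counts at unadjusted p, list counts and list medians under each alternative were added after seeing the data. With 3 pools a group, the median SE of a log2 fold change was 0.27.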
